A study of Mus musculus with 15 samples.

Results

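The genes described here act in meiotic recombination, and 9 were named for the purpose: Spo11, Dmc1, Meiob, Spata22, Msh4, Msh5, Hfm1, Rnf212 and Mlh3. They were picked by symbol and not ranked by their values, although earlier results of these data were known when they were chosen. Of the 50051 rows of the RNA-seq count tables, 8 are rows of these genes under their own symbols. Spata22 had no row of its own. Its gene body lies inside a longer row on the same strand, ENSMUSG00000069825 at chr11:73329741-73355913 (mm10), of which Olfr20 overlaps 19.6% of the length, and values of that row are given as those of the row that spans Spata22 and are kept out of the counts of members.

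RNA was measured in whole testis of B6D2F1 mice at postnatal day 28, an age at which the testis holds meiotic cells and spermatids. Wild-type (+/+), heterozygous (+/-) and homozygous (-/-) animals differ in a chromosome 18 locus that gives rise to pachytene piRNAs, small RNAs of meiotic and haploid male germ cells. There were 3 stranded total RNA-seq libraries of each genotype, and 3 heterozygous and 3 homozygous small RNA libraries made after periodate treatment, which favours RNAs with a methylated 3′ end. The labels do not say that the libraries of a genotype came from separate animals, and p-values therefore cover only the spread among the 3 libraries of a genotype, which may be technical.

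Meiotic recombination starts when SPO11 cuts both DNA strands in early meiotic prophase. The ends are trimmed to single strands, bound by RPA and by the MEIOB-SPATA22 complex, and loaded with recombinases, among them DMC1, which search the homologous chromosome. A subset of the resulting joints is stabilised by HFM1, MSH4-MSH5 and RNF212 and resolved as crossovers by an endonuclease that contains the product of Mlh3. The genes are switched on in spermatogonia entering meiosis and in spermatocytes, and in bulk testis RNA fewer cells of a type and less RNA per cell cannot be told apart.

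RNA-seq libraries held 21684791 to 41513634 counts and small RNA libraries 939641 to 1861402 counts. The genotype labels were checked on the annotated piRNA precursor row of chromosome 18 with the most wild-type counts. This row was picked by abundance and not by the coordinates of the locus. Relative to the unscaled library total, it stood at 259 to 272 CPM in wild type and 139 to 216 CPM in heterozygotes. In homozygotes it stood at 0.116 to 0.205 CPM, matching the genotype labels. All CPM values below are the edgeR level, counts relative to the scaled library size. Counts on the strand opposite to the kit's came to 8.81 to 10.7% of those on the kit's strand. In each of 2 genotypes 1 library stood apart from its replicates. In chi-square divided by its degrees of freedom, where sampling noise alone is near 1, wild-type library 1 differed by 47.6 and 50.7 from libraries 2 and 3, which differed from each other by 3.12. Heterozygous library 1 differed by 39.2 and 42.6 from 2 libraries that differed from each other by 17.9. Heterozygous library 1 also had the lowest summed elongating spermatid markers of all 9 libraries. Values without these libraries are given below where a call changes. Replicate numbers of RNA-seq libraries follow sample order and pair nothing.

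Between 777 and 8192 counts a genotype stood behind each gene. Per kilobase of gene body, the length over which fragments were counted, the wild-type level was highest for Spo11 at 3.56 ± 0.345 CPM per kb (SD, n = 3), followed by Mlh3 at 1.43 ± 0.111 and Meiob at 1.03 ± 0.0531. Msh5 at 0.797 ± 0.0426, Hfm1 at 0.760 ± 0.0164 and the row that spans Spata22 at 0.731 ± 0.0220 CPM per kb were close neighbours: the ranges of Msh5 and Hfm1 overlapped, as did those of Hfm1 and the row that spans Spata22. Msh4 at 0.559 ± 0.0381, Dmc1 at 0.396 ± 0.0356 and Rnf212 at 0.208 ± 0.0157 CPM per kb closed the order, with no overlap between neighbours. Gene bodies include introns, and the order was different when the same counts were divided by exon length: Meiob, with only 1.70 kb of exons in a 35.4 kb gene body, then led at 21.5 ± 1.10 CPM per kb of exon, ahead of Spo11 at 14.4 ± 1.40, and Msh5 was lowest at 2.62 ± 0.140.

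Against wild type, the break-forming enzyme gene Spo11 and the single-strand binding gene Meiob were higher in both other genotypes, Meiob by 1.69-fold in homozygotes and 1.72-fold in heterozygotes. Dmc1 passed in homozygotes, Msh4 and Rnf212 passed in heterozygotes, and Msh5, Hfm1 and Mlh3 passed in neither. A gene passed when its adjusted p (edgeR quasi-likelihood test, Benjamini-Hochberg over all 20782 features tested) was under 0.05. In homozygotes 3 of the 8 genes with a row of their own were higher than in wild type (Spo11, Dmc1 and Meiob) and 0 lower, where 9.68% of all features tested were called higher and 11.1% lower; 5 of the 8 had an unadjusted p under 0.05, as did 35.7% of all features. In heterozygotes 4 of the 8 were higher than in wild type (Spo11, Meiob, Msh4 and Rnf212) and 0 lower, where 11.1% of all features were called higher and 12.9% lower; 5 of the 8 had an unadjusted p under 0.05, as did 37.8% of all features. Both comparisons use the same wild-type libraries, so they are not independent of each other. The median log2 fold change of the 8 genes was 0.27 in homozygotes and 0.31 in heterozygotes, beside -0.015 and -0.002 over all features. The wild-type libraries lay below every library of the other genotype for 5 of the 8 genes in each comparison, and for 20.6% of all features with homozygotes and 20.5% with heterozygotes. DESeq2 called 3 and 4 of the 8 higher and 0 lower. The counts changed when 1 library was left out: in homozygotes 1 gene (Meiob) passed without homozygous library 2 or 3, and in heterozygotes 2 (Spo11 and Meiob) passed without any 1 of the 3 wild-type libraries, heterozygous library 1 or 3, or homozygous library 2, and also after gene length trends were removed.

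**Figure D1:**
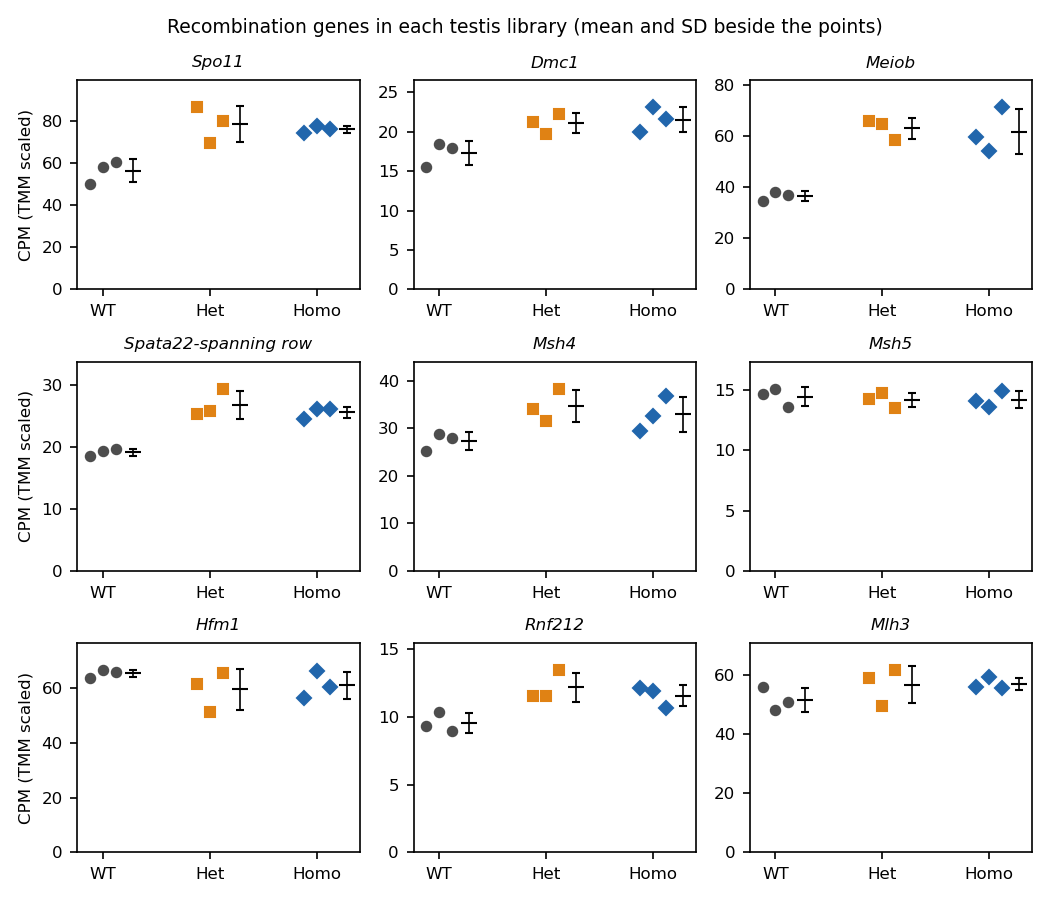
Level of each of the 9 recombination genes in every RNA-seq library, in CPM on a linear axis from 0, by genotype (WT, wild type; Het, heterozygous; Homo, homozygous); points are libraries and the bar beside them is the mean with its SD over 3 libraries. Wild-type Meiob libraries lie between 34.5 and 38.2 CPM and all others between 54.2 and 71.3 CPM, while the genotypes overlap for Msh5, Hfm1 and Mlh3.

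Spo11 (chr2:172977700-172993576, plus strand) encodes the enzyme that makes the breaks. Its level was 50.3, 58.4 and 60.8 CPM in the wild-type libraries, 86.6, 69.5 and 80.0 CPM in the heterozygous ones and 74.5, 77.8 and 76.1 CPM in the homozygous ones. Every wild-type library lay below every other library, and the homozygous libraries were the tightest group. The difference from wild type was 1.35-fold in homozygotes (log2 0.43 ± 0.10 SE, edgeR adjusted p = 0.0137) and 1.39-fold in heterozygotes (log2 0.48 ± 0.10 SE, adjusted p = 0.00838). Without wild-type library 1 the differences were 0.36 in homozygotes (adjusted p = 0.0382) and 0.41 in heterozygotes (adjusted p = 0.0252) on the log2 scale. The homozygous call was lost without homozygous library 2 (adjusted p = 0.0550) or library 3 (adjusted p = 0.0514) at nearly the same fold change. Without heterozygous library 1 the heterozygous difference was 0.40 on the log2 scale (adjusted p = 0.0240).

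Dmc1 (chr15:79561500-79605084, minus strand) encodes the recombinase found only in meiosis. It stood at 15.5, 18.4 and 17.9 CPM in the wild-type libraries, 21.2, 19.8 and 22.3 CPM in heterozygous testes and 19.9, 23.1 and 21.6 CPM in homozygous testes. The wild-type libraries were again the lowest, by a narrow margin. The difference from wild type was 1.25-fold in homozygotes (log2 0.32 ± 0.10 SE, adjusted p = 0.0490, edgeR) and 1.22-fold in heterozygotes (log2 0.29 ± 0.10 SE, adjusted p = 0.0625), the second short of the threshold. The homozygous call sat at the threshold and was lost in 10 of 17 alternative settings, with an adjusted p of 0.131 without wild-type library 1 and up to 0.166 without homozygous library 2.

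Meiob (chr17:24804382-24839787, plus strand) encodes a single-strand DNA binding protein related to the large RPA subunit and showed the largest difference of the 9. Its level was 34.5, 38.2 and 36.9 CPM in the wild-type libraries, 66.0, 64.6 and 58.3 CPM in heterozygous testes and 59.8, 54.2 and 71.3 CPM in homozygous testes. The gap between the highest wild-type library and the lowest of the others was wider than the spread within wild type. It was narrower than the spread among the homozygous libraries. Meiob was 1.69-fold higher in homozygotes than in wild type (log2 0.76 ± 0.11 SE, edgeR adjusted p = 0.00129) and 1.72-fold higher in heterozygotes (log2 0.79 ± 0.11 SE, adjusted p = 0.00112). It passed under all 17 alternative settings in both comparisons, with log2 differences from 0.64 to 0.84 and from 0.75 to 0.88.

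The product of Spata22 binds MEIOB and the pair depends on each other on chromosomes. The row that spans Spata22 was at 18.5, 19.3 and 19.6 CPM in the wild-type libraries, 25.3, 25.7 and 29.4 CPM in heterozygous testes and 24.5, 26.2 and 26.1 CPM in homozygous testes. No wild-type library reached the others. The row was 1.34-fold higher in homozygotes (log2 0.42 ± 0.09 SE, adjusted p = 0.0103, edgeR) and 1.40-fold higher in heterozygotes (log2 0.49 ± 0.09 SE, adjusted p = 0.00537), and it passed under all 17 settings in both. How much of this row's count comes from Spata22 and how much from the downstream part was not tested.

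Msh4 (chr3:153857149-153906138, minus strand) and Msh5 (chr17:35028605-35046745, minus strand) encode the subunits of a clamp that slides on recombination joints. Msh4 stood at 25.3, 28.9 and 27.9 CPM in the wild-type libraries, 34.0, 31.7 and 38.3 CPM in heterozygous testes and 29.5, 32.6 and 36.7 CPM in homozygous testes. Its wild-type libraries were the 3 lowest, and homozygous library 1 lay close above them. The difference was 1.27-fold in heterozygotes (log2 0.34 ± 0.11 SE, edgeR adjusted p = 0.0399) and 1.20-fold in homozygotes (log2 0.27 ± 0.11 SE, adjusted p = 0.0999), the second not past the threshold. The heterozygous call was lost in 7 of 17 settings, among them without wild-type library 1 (adjusted p = 0.110) and without heterozygous library 1 (adjusted p = 0.0663). Msh5 was at 14.6, 15.1 and 13.6 CPM in the wild-type libraries, 14.2, 14.8 and 13.5 CPM in heterozygous testes and 14.1, 13.6 and 14.9 CPM in homozygous testes, all 3 genotypes overlapping. Its log2 difference from wild type was -0.02 in homozygotes (95% interval -0.24 to 0.19) and -0.03 in heterozygotes (95% interval -0.24 to 0.19).

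Hfm1 (chr5:106840192-106926321, minus strand), a DNA helicase gene needed for crossovers, did not pass either. It was at 63.9, 66.6 and 65.9 CPM in the wild-type libraries, 61.8, 51.4 and 65.8 CPM in heterozygous testes and 56.5, 66.3 and 60.5 CPM in homozygous testes. The genotypes overlapped, with heterozygous library 2 lowest. Its log2 difference from wild type was -0.10 in homozygotes (95% interval -0.32 to 0.12, edgeR adjusted p = 0.519) and -0.13 in heterozygotes (-0.36 to 0.09, adjusted p = 0.368). Hfm1 has the longest gene body of the 9 at 86.1 kb against 6.69 kb of exons, and unspliced RNA enters its count.

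Rnf212 (chr5:108729290-108774982, minus strand) encodes a SUMO ligase-like protein whose dose limits crossovers, and it had the fewest counts of the 9 genes. Its level was 9.31, 10.3 and 8.92 CPM in the wild-type libraries, 11.5, 11.5 and 13.4 CPM in heterozygous testes and 12.1, 11.9 and 10.7 CPM in homozygous testes. The highest wild-type library lay just under the lowest homozygous one. The difference was 1.28-fold in heterozygotes (log2 0.35 ± 0.12 SE, edgeR adjusted p = 0.0458) and 1.21-fold in homozygotes (log2 0.28 ± 0.12 SE, adjusted p = 0.109). The heterozygous call was lost in 13 of 17 settings, among them without wild-type library 1 (adjusted p = 0.0994), without heterozygous library 1 (adjusted p = 0.0586) and with both strands summed (adjusted p = 0.0879). The gene 1700047L14Rik overlaps 11.1% of this gene's length on the opposite strand, and opposite-strand counts there were 24.3% of the kit-strand counts in wild-type testes, 18.3% in heterozygous testes and 14.7% in homozygous testes.

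Mlh3 (chr12:85234529-85270591, minus strand) encodes a subunit of the endonuclease that resolves crossovers. It was at 56.0, 48.1 and 50.9 CPM in the wild-type libraries, 59.0, 49.7 and 61.6 CPM in heterozygous testes and 56.0, 59.3 and 55.8 CPM in homozygous testes. Wild-type library 1 lay inside the range of both other genotypes. The log2 difference from wild type was 0.14 in homozygotes (95% interval -0.07 to 0.36, edgeR adjusted p = 0.327) and 0.14 in heterozygotes (-0.08 to 0.35, adjusted p = 0.340).

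Between homozygotes and heterozygotes, the comparison of 0 against 1 intact copy of the locus, 0 of the 8 genes passed in edgeR, 0 had an unadjusted p under 0.05 (beside 3.07% of all features), and 0 passed in DESeq2. Over all features tested, 0.0144% were called higher in homozygotes and 0.0144% lower. The log2 differences of the 8 genes ran from -0.07 for Msh4 to 0.03 for Hfm1, with a median of -0.01. The 95% intervals of the 8 genes, each for 1 gene and not adjusted, lay between 0.800-fold and 1.19-fold. Differences inside a gene's interval were not excluded, and no limit of detection was worked out. For the row that spans Spata22 the difference was -0.07 (95% interval 0.831-fold to 1.10-fold).

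**Figure D2:**
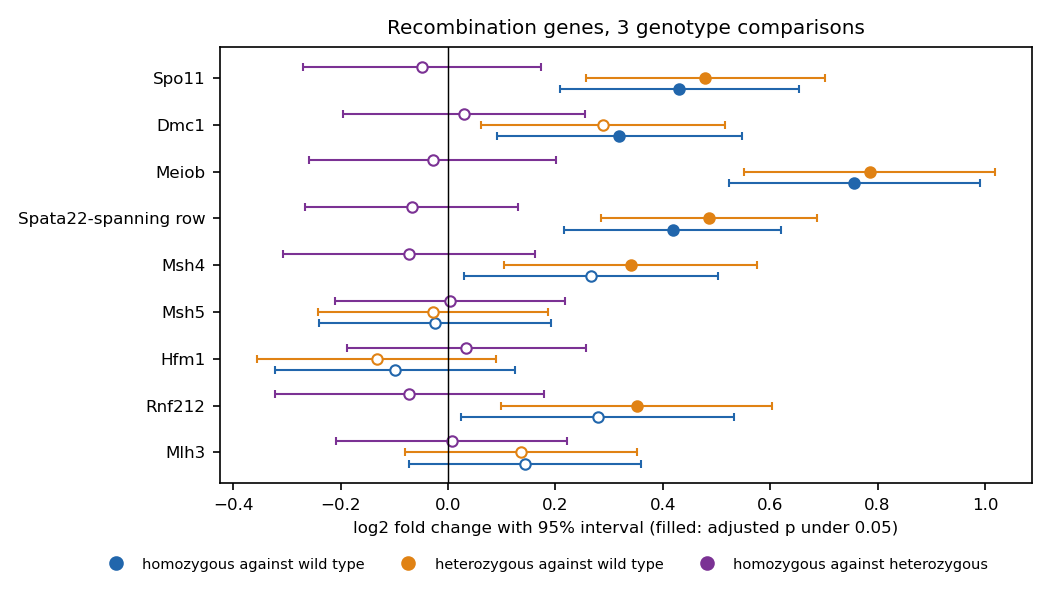
Log2 fold change of each gene (x axis) with its 95% interval in the 3 genotype comparisons, from 1 edgeR fit over all 9 libraries; filled points passed an adjusted p of 0.05. Both comparisons with wild type lie right of 0 for Spo11, Dmc1, Meiob, Msh4, Rnf212 and the row that spans Spata22, and every interval between homozygotes and heterozygotes includes 0.

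RefSeq promoter windows (GRCm38.p6, from 250 bases before to 50 after an annotated start) matched 7 of the 9 genes by symbol: Dmc1, Spata22, Msh4, Msh5, Hfm1, Rnf212 and Mlh3, the last with 2 overlapping windows. They were searched on both strands for 4 short motifs of regulators known from meiotic entry and prophase: the E-box CACGTG, which reads the same on both strands, the E2F motif GCGGGAA, the STRA8 motif CNCCTCAG and the MYB motif AACNGTT. Msh4 and Msh5 are shown because their products form a complex while Msh4 passed in heterozygotes and Msh5 in neither genotype; Spata22 and Hfm1 are shown as windows of a row that was higher and of a gene that did not pass. Each is printed 5′ to 3′ along the gene, as 280 bases that end 30 bases past the start, with matches to any of the 4 motifs in capitals.
Msh4, chr3:153904862-153905141, minus strand: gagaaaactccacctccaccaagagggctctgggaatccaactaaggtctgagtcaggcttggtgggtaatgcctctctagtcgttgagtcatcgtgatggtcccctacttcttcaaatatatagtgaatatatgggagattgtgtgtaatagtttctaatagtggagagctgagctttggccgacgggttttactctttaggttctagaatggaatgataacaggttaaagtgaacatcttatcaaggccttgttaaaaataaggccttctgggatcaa
Msh5, chr17:35046593-35046872, minus strand: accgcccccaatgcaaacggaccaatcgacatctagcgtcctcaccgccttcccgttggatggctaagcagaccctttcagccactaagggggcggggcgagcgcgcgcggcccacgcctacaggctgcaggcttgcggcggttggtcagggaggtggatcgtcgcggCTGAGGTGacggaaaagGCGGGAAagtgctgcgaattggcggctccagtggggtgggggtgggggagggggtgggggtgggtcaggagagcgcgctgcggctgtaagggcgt
Spata22, chr11:73329491-73329770, plus strand: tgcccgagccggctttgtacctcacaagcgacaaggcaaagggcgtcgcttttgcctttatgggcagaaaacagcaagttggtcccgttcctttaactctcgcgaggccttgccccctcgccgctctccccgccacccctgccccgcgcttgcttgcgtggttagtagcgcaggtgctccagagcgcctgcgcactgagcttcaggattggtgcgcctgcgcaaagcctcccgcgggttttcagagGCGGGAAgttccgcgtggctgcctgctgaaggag
Hfm1, chr5:106925861-106926140, minus strand: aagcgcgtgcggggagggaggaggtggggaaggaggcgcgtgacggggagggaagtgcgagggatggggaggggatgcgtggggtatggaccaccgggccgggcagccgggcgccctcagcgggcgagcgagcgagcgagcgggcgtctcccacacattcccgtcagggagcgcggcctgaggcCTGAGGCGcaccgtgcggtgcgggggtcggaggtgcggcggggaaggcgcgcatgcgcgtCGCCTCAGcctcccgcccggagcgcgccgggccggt

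The Msh5 window holds 1 STRA8 match followed by 1 E2F match, the Spata22 window 1 E2F match at the start site, and the Hfm1 window 2 STRA8 matches, 1 on each strand, while these letters are not in the Msh4 window. No 2 matches overlap. The E2F motif occurred in 3 of the 7 genes (Spata22, Msh5 and Rnf212) and in 4.60% of all 32851 RefSeq windows, the STRA8 motif in 2 of 7 (Msh5 and Hfm1) and in 7.94% of all windows, the E-box in 1 of 7 (Rnf212) and in 7.15%, and the MYB motif in 0 of 7 and in 4.45%. Msh5 and Hfm1, whose levels did not pass, carry matches, and so do Spata22 and Rnf212. The Msh4 window also differs in base composition, with 43.3% G and C and 6 CpG dinucleotides beside 67.3% and 27 for Msh5 and 75.3% and 41 for Hfm1; the medians over all windows were 52.7% and 7. The Msh4 and Hfm1 windows lie wholly inside their counted rows, short of the upstream ends.

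Ratios of partner genes within a library do not depend on library scaling. For 3 libraries against 3 the smallest 2-sided exact permutation p is 0.1, and over the 21 ratio tests its Benjamini-Hochberg value is 0.233, so no ratio could pass. The log2 ratio of Msh4 to Msh5 was 0.79, 0.94 and 1.04 in wild-type testes, 1.25, 1.10 and 1.50 in heterozygous testes and 1.06, 1.26 and 1.30 in homozygous testes. Every wild-type library lay below every other, with mean differences of 0.36 in heterozygotes and 0.28 in homozygotes (exact p = 0.1 for each). The log2 ratio of Meiob to the row that spans Spata22 was 0.90, 0.98 and 0.91 in wild-type testes, 1.38, 1.33 and 0.99 in heterozygous testes and 1.29, 1.05 and 1.45 in homozygous testes. The groups did not overlap either, although heterozygous library 3 lay beside the wild-type libraries, and the mean differences were 0.33 in homozygotes and 0.30 in heterozygotes (exact p = 0.1 for each).

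Spo11 was also set against Top6bl, whose product is its partner subunit. The log2 ratio was 2.97, 3.19 and 3.08 in wild-type testes, 3.50, 3.27 and 3.29 in heterozygous testes and 3.52, 3.40 and 3.38 in homozygous testes, a mean difference from wild type of 0.35 in homozygotes and 0.27 in heterozygotes with no overlap (exact p = 0.1 for each). Psmc3ip and Mnd1 encode the subunits of a complex that helps DMC1. Their log2 ratio differed from wild type by -0.57 in homozygotes and -0.58 in heterozygotes with no overlap (exact p = 0.1 for each), but by -0.21 and -0.34 when both strands were summed. Mnd1 itself was higher in homozygotes (log2 0.68 ± 0.16 SE, edgeR adjusted p = 0.0121) and Psmc3ip did not pass (log2 0.11, adjusted p = 0.405). Without wild-type library 1 the differences from wild type in these 4 ratios kept their sign.

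**Figure D3:**
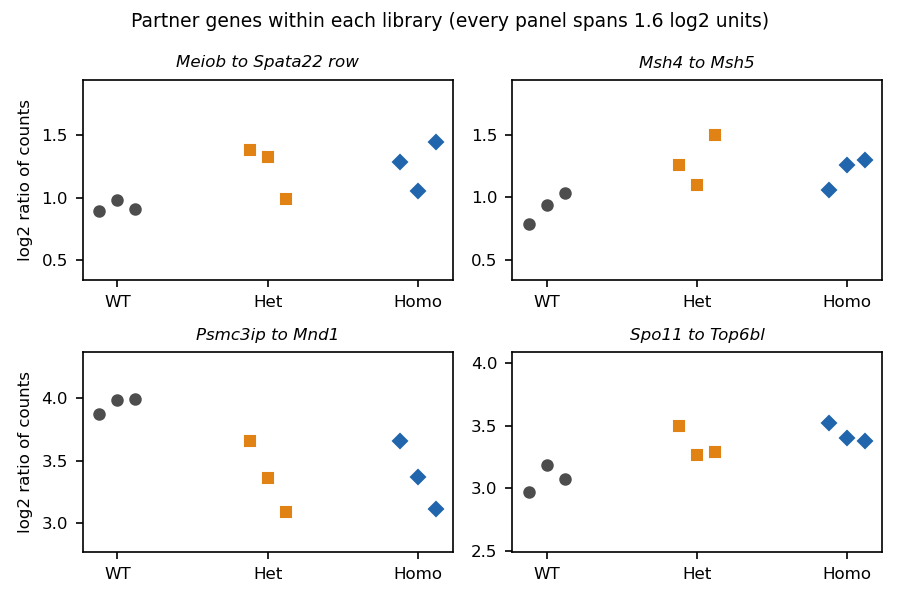
Log2 ratio of the counts of partner genes within each RNA-seq library, by genotype (WT, Het and Homo as labelled); points are libraries, every y axis spans the same number of log2 units, and the Spata22 row is the row that spans the gene. Wild type lies apart from the other genotypes for Meiob to Spata22, Msh4 to Msh5, Psmc3ip to Mnd1 and Spo11 to Top6bl.

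The rest of the pathway was read from 3 lists, 63 genes of which were tested. In homozygotes 17 of the 63 were higher than in wild type and 0 lower, with a median log2 fold change of 0.16, and in heterozygotes 16 were higher and 2 lower, with a median of 0.11. Between homozygotes and heterozygotes 0 of the 63 passed in edgeR, 0 had an unadjusted p under 0.05 (3.07% of all features did) and 0 passed in DESeq2. The count in homozygotes was 10 higher without homozygous library 2 and 10 higher and 1 lower without wild-type library 3, and that in heterozygotes was 8 higher without heterozygous library 3 and 10 higher and 1 lower without heterozygous library 1. Without wild-type library 1 the counts were 16 higher and 0 lower in homozygotes and 13 higher and 0 lower in heterozygotes. These counts, and those of each list below, are to be read beside the shares of all features tested. In homozygotes 9.68% of all features were called higher and 11.1% lower, and in heterozygotes 11.1% higher and 12.9% lower.

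Among 9 other genes of strand break formation, 3 were higher in homozygotes (Mei4, Prdm9 and Zcwpw1), and in heterozygotes 2 were higher (Mei4 and Zcwpw1) and 1 lower (Mei1). Mei4, part of the machinery that lets SPO11 cut, rose from 5.28 ± 0.196 CPM in wild type to 7.53 ± 0.265 in homozygotes (SD, n = 3; edgeR adjusted p = 0.0188) and 7.68 ± 0.978 in heterozygotes (adjusted p = 0.0137). Prdm9, the histone methyltransferase that places the breaks, was 4.24 ± 0.418 CPM in wild type, 6.42 ± 0.809 in homozygotes (adjusted p = 0.0212) and 5.82 ± 0.794 in heterozygotes (adjusted p = 0.0521, short of the threshold). Zcwpw1, which reads the marks PRDM9 leaves, rose by 0.38 in homozygotes (adjusted p = 0.0339) and 0.34 in heterozygotes (adjusted p = 0.0457) on the log2 scale. Mei1, also required for breaks, fell from 9.40 ± 0.688 to 6.72 ± 1.02 CPM in heterozygotes (adjusted p = 0.0333) and stood at 8.05 ± 1.05 CPM in homozygotes (adjusted p = 0.294). The calls of Mei4, Prdm9, Zcwpw1 and Mei1 were each lost when at least 1 library was left out.

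Of 35 other genes of end processing and strand exchange, 8 were higher in each comparison with wild type: Atm, Brca1, Mcm8, Mcmdc2, Mnd1, Rbbp8, Rpa3 and Tex15. Rbbp8, which encodes the end resection factor CtIP, was 55.9 ± 1.33 CPM in wild type, 86.4 ± 9.76 in homozygotes (SD, n = 3; edgeR adjusted p = 0.00434) and 83.3 ± 11.3 in heterozygotes (adjusted p = 0.00590). Brca1, a mediator of recombinase loading, was 32.9 ± 0.512 CPM in wild type, 47.5 ± 3.63 in homozygotes (adjusted p = 0.00210) and 44.7 ± 0.513 in heterozygotes (adjusted p = 0.00504). Atm, the kinase that limits the number of breaks, rose by 0.53 in homozygotes (adjusted p = 0.00347) and 0.43 in heterozygotes (adjusted p = 0.00819) on the log2 scale. The helicase gene Mcm8 rose by 0.64 and 0.48, and Mcmdc2, an MCM-like gene needed for strand exchange, by 0.54 and 0.69 on the same scale. One of the 35, Rpa1, the large subunit of the general single-strand binding complex and a relative of Meiob, was lower in heterozygotes (log2 -0.44, adjusted p = 0.0208) and did not pass in homozygotes (log2 -0.30, adjusted p = 0.0866).

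Of 19 other crossover genes, 6 were higher in each comparison with wild type and 0 lower: Ccnb1ip1, Gen1, Pms2, Rmi1, Shoc1 and Tex11. Tex11, an X-linked partner of Shoc1 in crossover formation, was 29.4 ± 1.24 CPM in wild type, 44.0 ± 2.97 in homozygotes (SD, n = 3; edgeR adjusted p = 0.00512) and 42.6 ± 5.91 in heterozygotes (adjusted p = 0.00669). Shoc1 was 25.3 ± 1.03, 31.9 ± 2.65 and 31.7 ± 1.35 CPM in the same order (adjusted p = 0.0232 and 0.0235). Pms2, a mismatch repair gene, rose by 0.59 in homozygotes (adjusted p = 0.00526) and 0.46 in heterozygotes (adjusted p = 0.0128) on the log2 scale. Ccnb1ip1, whose product opposes RNF212 at crossover sites, rose by 0.45 in homozygotes (adjusted p = 0.0254) and 0.37 in heterozygotes (adjusted p = 0.0484), and the resolvase gene Gen1 by 0.37 (adjusted p = 0.0426) and 0.40 (adjusted p = 0.0281). The calls of Shoc1 and Ccnb1ip1 in homozygotes and of Shoc1 and Gen1 in heterozygotes were each lost when at least 1 library was left out. The calls of Ccnb1ip1 in heterozygotes, of Gen1 in homozygotes and of Rmi1 in both were not recomputed singly.

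**Figure D4:**
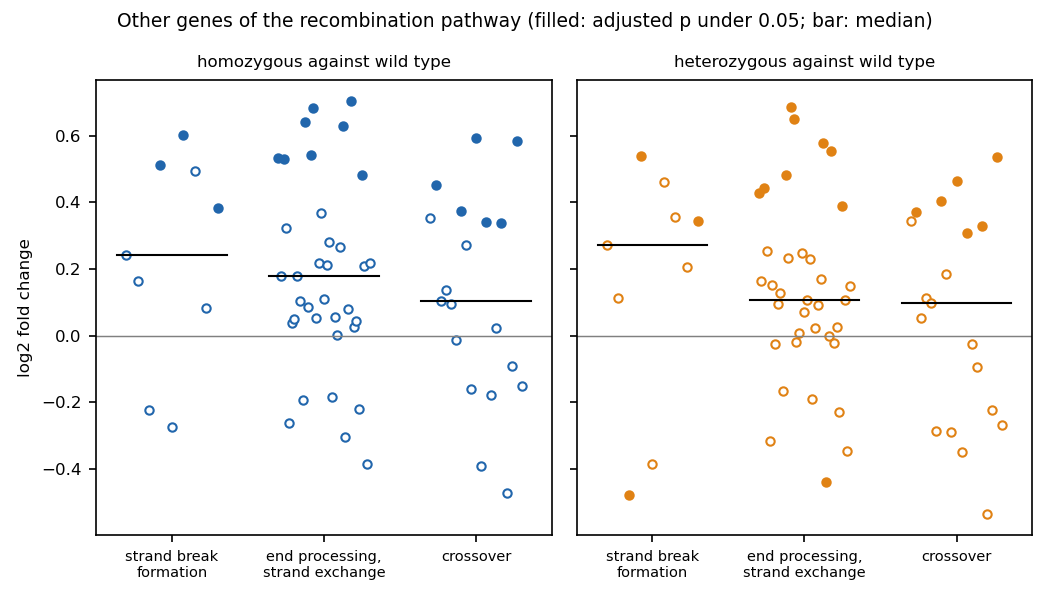
Log2 fold change against wild type (y axis) of the other genes of the 3 pathway lists, in homozygotes (left) and heterozygotes (right); filled points passed an adjusted p of 0.05 in edgeR and the black bar is the median of a list. The 17 filled points on the left all lie above 0, and on the right 16 lie above and 2 below.

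Markers of the cells that express these genes and of other testis cells were read in the same libraries. Their calls against wild type are to be read beside the shares of all features tested. These were 9.68% higher and 11.1% lower in homozygotes, and 11.1% higher and 12.9% lower in heterozygotes. The synaptonemal complex and axis genes, expressed in the same prophase cells, were higher for 8 of 14 in homozygotes and for 9 of 14 in heterozygotes, where Rec8 was lower, and their summed level was 2394 to 2449 CPM in wild type, 2728 to 3326 in heterozygotes and 2987 to 3236 in homozygotes. The summed counts of the 8 recombination genes with a row of their own were set against that list. This log2 ratio differed from wild type by -0.10 in homozygotes (exact permutation p = 0.1, no overlap, adjusted 0.233 over 21 tests). In heterozygotes the difference was -0.02 (exact p = 0.6, overlapping). Pachytene spermatocyte markers summed to 7388 to 7611 CPM in wild type, 6602 to 6982 in heterozygotes and 6911 to 7306 in homozygotes. Of 13 tested, 1 was higher and 1 lower in homozygotes, and 0 were higher and 3 lower in heterozygotes. Spermatogonial markers summed to 223 to 263, 207 to 222 and 215 to 231 CPM in the same order. Of 15 tested, 2 were higher and 2 lower in homozygotes, and 1 was higher and 1 lower in heterozygotes.

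Elongating spermatid markers were lower for 7 of 16 tested genes in homozygotes and 8 of 16 in heterozygotes. They summed to 16630 to 17300 CPM in wild type, 5653 to 13720 in heterozygotes and 9185 to 12320 in homozygotes, with Cabs1 listed at 0 in every library. Leydig cell markers were lower for 9 of 11 in each, with sums of 1320 to 1451, 591 to 764 and 544 to 729 CPM and with Insl3 listed at 0 in every library. Round spermatid markers summed to 1928 to 2279, 1693 to 2039 and 1905 to 2024 CPM, and Sertoli cell markers to 1087 to 1127, 997 to 1110 and 1053 to 1200 CPM. Of 13 round spermatid markers, 1 was higher and 1 lower in homozygotes, and 1 was higher and 2 lower in heterozygotes. Of 13 Sertoli cell markers, 2 were higher in homozygotes and 4 in heterozygotes, with 0 lower in each. Peritubular myoid markers summed to 504 to 524, 431 to 472 and 402 to 448 CPM and macrophage markers to 148 to 171, 146 to 165 and 135 to 174 CPM. Of 8 myoid markers, 2 were lower in homozygotes and 1 in heterozygotes, with 0 higher in each. Of 9 macrophage markers, 1 was higher and 1 lower in each. The part of these cell type markers in the differences of the recombination genes was not tested.

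**Figure D5:**
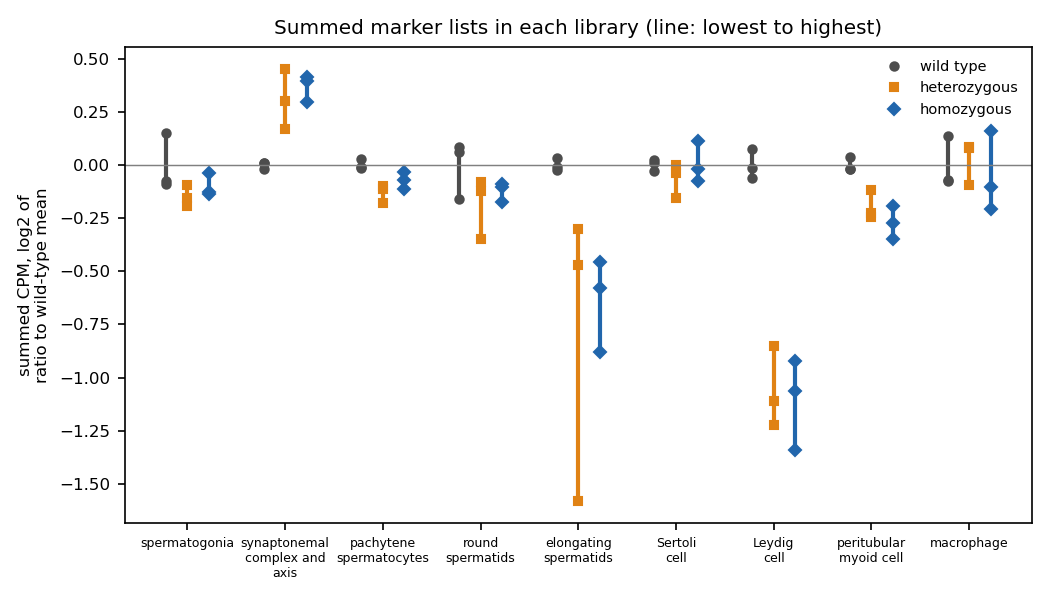
Summed CPM of 9 marker lists in each RNA-seq library, as log2 of the ratio to the wild-type mean (y axis), by genotype; symbols are libraries and lines join the lowest and highest of a genotype. The synaptonemal complex and axis list lies above wild type in all 6 other libraries. The pachytene spermatocyte, elongating spermatid, Leydig cell and peritubular myoid lists lie below wild type in all 6. Heterozygous library 1 is the lowest point of the elongating spermatid list.

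Genes with the profile nearest to the mean profile of the recombination genes were sought among 13929 genes. That mean was taken over all 9 rows, that spanning Spata22 included. The measure was the root mean square difference of centred log2 CPM over the 9 libraries. The nearest were Zfr (0.0234), Fndc3b (0.0290), Asb7 (0.0291), Sfpq (0.0305) and Zzz3 (0.0308), none of them from the pathway lists. Zfr stood at 193 CPM in wild-type testes, 234 in heterozygous testes and 233 in homozygous testes. These 5 were chosen for their nearness. By the same measure the difference of each recombination gene from the mean of the other 8 ran from 0.0663 for Dmc1 and 0.0801 for Msh4 to 0.192 for Msh5, 0.231 for Hfm1 and 0.286 for Meiob.

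In the small RNA libraries, exons of the recombination genes were nearly empty. The microRNA gene Mir6938 overlaps 0.175% of the length of Mlh3 on the same strand. Its part in the Mlh3 counts was not tested. Mlh3 had 37, 26 and 33 counts in the heterozygous libraries and 25, 40 and 18 in the homozygous ones, which overlap. It was the 1 gene of the 9 to pass the filter on low counts, at a log2 difference of -0.14 ± 0.30 SE (edgeR adjusted p = 0.906) between homozygotes and heterozygotes. That value was -0.24 without heterozygous library 1, which stood apart from its replicates here too, 0.05 without homozygous library 1, -0.54 without homozygous library 2 and nearest 0 without homozygous library 3. The others held from 0 to 18 counts over the 3 libraries of a genotype: Hfm1 had 18 in heterozygotes and 11 in homozygotes, and Rnf212 had 1 and 0. Of all 3581 small RNA features tested, 1 was called (0% higher and 0.0279% lower in homozygotes).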

How the data were processed

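Libraries were grouped by the genotype labels. The authors deposited raw counts, made with featureCounts 1.6.2 over whole gene bodies, introns included, for RNA-seq and featureCounts 1.6.1 over exons on the sense strand for small RNA, per the file headers. The submitters' processing notes name the mm10 and mm9 builds, HISAT2 2.1.0 and other tools without roles. Symbols were found for 49326 of 49585 gene rows, and the row that spans Spata22 was found by position in a GENCODE annotation of mm10.

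RNA-seq counts on the kit's strand were fitted with edgeR 4.0.16 (limma 3.58.1, the data.table package, version 1.17.8, R 4.3.3): filterByExpr left 20782 features, libraries were scaled by TMM, and all 9 libraries entered 1 quasi-likelihood fit with Benjamini-Hochberg adjustment over all features. Replicate pairs differed by more than counting noise (chi-square per degree of freedom of 3.12 or more in RNA-seq and 2.11 or more in small RNA), so none was merged. Log2 ratios within a library added 0.5 to each count. DESeq2 1.42.0, other scalings, filters, strands and samples, a gene length correction and each library left out were alternatives.

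All 9 genes are named. From each pathway list up to 4 genes past the threshold by lowest p in each contrast are named, with the 5 nearest profiles and partner genes, some of which are not reported here; Rpa1, Rpa3, Rmi1, Tex15 and Rec8 were named after their values were seen. The genes, lists and tests were chosen with earlier results of these data known. Of the listed pathway genes, Firrm and Rnf212b matched no row.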

Additional observations from a re-analysis of the deposited data

How the results depend on the processing

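The counts of calls, the recombination genes and the pathway genes in the comparison for which the rule named them were recomputed under 17 alternative settings; marker lists, nearest profiles and other pathway values were not. The recombination genes higher in homozygotes than in wild type numbered 2 or 3 under 8 changes of test, scaling, filter, strand, length correction or samples, and 1 to 3 when 1 library was left out, beside 3 as reported. In heterozygotes they numbered 3 to 5 under those changes except 2 after gene length trends were removed, and 2 or 3 when 1 library was left out, beside 4; the cause was not tested. The other pathway genes called numbered 10 to 19 in homozygotes and 8 to 19 in heterozygotes when 1 library was left out, beside 17 and 18. Meiob and the row that spans Spata22 passed against wild type in all settings, and Spo11 did so in heterozygotes. Of values for single recombination genes, 12 lost their call in homozygotes (10 of them for Dmc1) and 20 in heterozygotes (13 for Rnf212 and 7 for Msh4), 1 gained it (Dmc1 in heterozygotes without scaling, adjusted p = 0.0448 in edgeR), and no called value changed sign. Between homozygotes and heterozygotes, none of the 9 rows, that spanning Spata22 included, passed in any setting, while 23 uncalled values changed sign and 130 did not.

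In small RNA the replicate numbers are shared by the labels, which do not say that equal numbers share an animal or day. Deviations of same-numbered libraries had correlations of -0.16, 0.003 and -0.09. With 3 libraries a genotype these cannot decide whether the numbers pair libraries, and the main fit used no pairing. With the replicate block, Mlh3 differed by -0.20 on the log2 scale (edgeR adjusted p = 0.842) and 0 recombination genes passed; over all small RNA features 0 were called with the block and 1 without. At these depths small RNA differences in the other 8 genes were not detectable.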

Other observations

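Opposite-strand counts, which entered a test only in the setting that sums both strands, were under 1% of the kit-strand counts for 7 of the 9 rows in every genotype. The exceptions were Rnf212, given above, and Msh4, where they were 6.40% of the kit-strand counts in wild type (142 of 2218), 4.65% in heterozygotes (165 of 3547) and 5.37% in homozygotes (146 of 2719). Gm24395 overlaps 0.255% of the length of Msh4 on that strand. Dmc1 and the row that spans Spata22 had 0 opposite-strand counts in all 3 wild-type libraries.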
